A study of Mus musculus with 2 samples.

Results

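The genes described here encode the nuclear subunits of the respiratory chain and of ATP synthase, with a few close relatives. Their RNA was measured in cap mesenchyme cells of the embryonic kidney, the Six2-positive progenitors from which nephron epithelium forms. Members were the protein-coding rows of the deposited table whose symbol begins with Nduf followed by a, b, c, s or v and a digit, with Uqcr, with Cox and a digit between 4 and 8, or with Atp5, together with Sdha to Sdhd and Cyc1. This rule found 63 genes among 9388 protein-coding rows and 10627 rows in all. Of these, 28 are subunits of complex I, 4 of complex II, 7 of complex III, 10 of complex IV and 9 of complex V, and 5 are relatives with a matching symbol.

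The study set p53-deficient progenitors against progenitors with intact p53, to ask how p53 bears on the self-renewal of these cells. The knockout library (KO) came from Six2CreGFP+;p53f/f embryos, in which Cre removes the floxed p53 alleles in Six2-expressing cells. The wild-type library (WT) came from Six2CreGFP+;p53+/+ embryos, so the Six2-driven Cre and GFP transgene is shared by both groups. All embryos were at embryonic day 15.5 on a mixed CD1 and C57BL background, flow cytometry was used to isolate the cells, and each group had 1 library. How many embryos were pooled is not given in the sources used here.

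Oxidative phosphorylation works as a chain in the inner mitochondrial membrane. Complex I takes electrons from NADH and complex II takes them from succinate. Both pass them through ubiquinone to complex III, and cytochrome c carries them on to complex IV, which reduces oxygen. Complexes I, III and IV pump protons, and the return of the protons drives the rotor of complex V, which makes ATP. Nephron progenitors are known to lean on glycolysis and to shift towards oxidative metabolism as they differentiate. In other cell types p53 is known to favour respiration, in part through Sco2, an assembly factor of complex IV.

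Values are read densities in RPKM, read counts scaled by gene length and by library depth. Differences are log2(KO + 1) minus log2(WT + 1), so a negative value means lower in KO and genes of low density have understated differences. Intervals are exact (Clopper-Pearson) 95% intervals of the KO/WT density ratio, from reads estimated with the gene length and an implied depth of about 85600000 reads in KO and 91200000 in WT. The median member had an estimated 3955 reads in KO and 4740 in WT. The intervals cover counting error only. With 1 library per group there is no spread between replicates and no test, so no difference here can be set against biological variation. In bulk RNA, fewer cells of a type and less RNA per cell cannot be told apart.

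Trp53, the gene for p53, was at 5.38 RPKM in KO and 33.9 RPKM in WT, the order the labels give. Six2, on whose transgene both libraries were sorted, was at 509 RPKM in KO and 482 RPKM in WT. Markers of other kidney and blood cells were lower in KO, where 63.7% of all protein-coding rows were lower. All 14 listed stromal markers, one of which (Meox1) is also on the nephron progenitor list, were lower, with a summed density of 169 RPKM in KO and 337 RPKM in WT. All 11 erythroid markers with a row, of 14 listed, were lower, at 25.1 RPKM summed in KO and 635 RPKM in WT, and Hba-x was at 0 in KO. All 11 leukocyte markers with a row, of 14 listed (2.90 RPKM summed in KO and 17.4 in WT) and all 14 listed endothelial markers (8.32 in KO and 21.3 in WT) were lower too. The 12 ureteric bud markers with a row, of 13 listed, summed to 49.7 RPKM in KO and 68.4 in WT, and the 12 podocyte and tubule markers with a row, of 14 listed, to 55.6 RPKM in KO and 107 in WT, each of the 24 lower in KO. Single genes near even hold much of these sums. Hoxb7 was at 28.6 RPKM in KO and 31.0 in WT, and Wt1 at 41.2 in KO and 43.4 in WT. The median log2 differences were -0.31 for the ureteric bud list and -0.89 for the podocyte and tubule list. Of 9 nephron progenitor markers with a row, 5 were lower and 4 higher, with a summed density of 1065 RPKM in KO and 1024 in WT. The part of these cells in the values of the respiratory genes was not tested.

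Promoter sequence is shown first, because the nuclear genes of the respiratory chain sit in many places of the genome and are known to share a few promoter-binding factors. These are NRF1, the ETS factor GABP and YY1. The sequences are the 200 bases before the RefSeq start on GRCm38.p6, read on the strand of the gene. They were chosen for the subunits of complexes I to V with the largest differences (Ndufa12, Cox6b2, Ndufs5 and Cox5b), for 2 that hold the NRF1 motif close to the start (Ndufs6 and Sdhd), and for the gene with the highest density (Cox8a). Capitals mark matches on either strand to the NRF1 motif (GCGCA, then any base, then GCGC), the ETS motif (CCGGAAG) or the YY1 motif (AAGATGG followed directly by CGG). Only matches that lie wholly inside the 200 bases are marked, and no 2 of these overlap. In the longer windows described below, Cox8a also holds an ETS match and Ndufs6 a YY1 match, which are not marked here. In Ndufs5 the NRF1 match lies from -98 to -89 and in Ndufs6 from -16 to -7, where -1 is the base before the start. Sdhd holds an NRF1 match from -79 to -70 and an ETS match from -46 to -40. For Ndufa12, Ndufs5 and Ndufs6 the deposited gene begins before the RefSeq start, at chr10:94198955, chr4:123718202 and chr13:73328542. The last bases shown for these genes thus lie inside the deposited gene, and so does the NRF1 match of Ndufs6.
Ndufa12, chr10:94198835-94199034, plus strand: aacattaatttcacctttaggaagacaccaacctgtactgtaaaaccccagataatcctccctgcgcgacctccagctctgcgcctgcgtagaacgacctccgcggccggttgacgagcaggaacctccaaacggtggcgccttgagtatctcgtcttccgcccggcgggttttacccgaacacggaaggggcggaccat
Cox6b2, chr7:4753095-4753294, minus strand: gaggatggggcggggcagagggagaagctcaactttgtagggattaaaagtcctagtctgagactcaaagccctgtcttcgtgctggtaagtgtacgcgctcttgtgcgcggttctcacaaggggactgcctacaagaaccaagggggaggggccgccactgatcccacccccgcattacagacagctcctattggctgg
Ndufs5, chr4:123718187-123718386, minus strand: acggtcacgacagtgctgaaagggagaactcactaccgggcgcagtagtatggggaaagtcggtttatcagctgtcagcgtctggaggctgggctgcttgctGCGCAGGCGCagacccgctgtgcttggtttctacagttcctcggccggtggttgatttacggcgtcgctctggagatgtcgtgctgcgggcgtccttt
Cox5b, chr1:36691287-36691486, plus strand: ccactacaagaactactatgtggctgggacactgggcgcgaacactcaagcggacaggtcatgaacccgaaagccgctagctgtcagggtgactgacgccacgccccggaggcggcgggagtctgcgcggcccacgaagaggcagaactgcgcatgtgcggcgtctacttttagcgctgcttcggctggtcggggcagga
Ndufs6, chr13:73328483-73328682, minus strand: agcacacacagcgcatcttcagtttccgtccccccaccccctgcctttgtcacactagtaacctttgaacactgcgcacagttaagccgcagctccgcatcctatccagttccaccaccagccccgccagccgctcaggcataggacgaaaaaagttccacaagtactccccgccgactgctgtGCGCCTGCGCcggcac
Sdhd, chr9:50603850-50604049, minus strand: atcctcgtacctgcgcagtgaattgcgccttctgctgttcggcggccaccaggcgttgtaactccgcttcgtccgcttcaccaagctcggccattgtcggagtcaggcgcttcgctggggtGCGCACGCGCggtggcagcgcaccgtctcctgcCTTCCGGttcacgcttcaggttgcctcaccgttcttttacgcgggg
Cox8a, chr19:7217617-7217816, minus strand: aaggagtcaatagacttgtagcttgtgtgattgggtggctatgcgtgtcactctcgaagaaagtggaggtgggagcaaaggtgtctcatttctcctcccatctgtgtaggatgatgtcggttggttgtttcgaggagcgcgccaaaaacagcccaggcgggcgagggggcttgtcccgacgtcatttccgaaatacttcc

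Over the full RefSeq windows, from 250 bases before the start to 50 after it, 51 members could be searched. The NRF1 motif was in 12 of the 51 (23.5%), against 722 of 7254 protein-coding genes of the table with a window and 4.6% of all 32851 windows. The ETS motif was in 11 members (21.6%), against 17.2% of the protein-coding genes and 8.9% of all windows. The YY1 motif was in 5 members (9.8%), against 2.1% and 0.9%. A pair of p53 half-sites, up to 13 bases apart, was in none of the 51, and in 0.1% of the protein-coding genes. The median difference was -0.18 in the members with the NRF1 motif and -0.18 in those without it. With the ETS motif it was -0.22 and without it -0.16. With the YY1 motif it was -0.12 and without it -0.19. A match is a stretch of letters and not a measured binding site, and a window with none says nothing about the factor.

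Nearly all of the listed genes had a lower density in KO, by a small amount. Of 63 members, 62 were lower, against 63.7% of all protein-coding rows. With the median of all protein-coding rows set to 0, 47 of 63 were lower, beside 4694 of all 9388 protein-coding rows. Once GC content and length were corrected for as described further on, 58 of 63 were under 0. That correction adds back the overall median of -0.11, and 7149 of 9328 protein-coding rows with a gene model were under 0 too. Under the overall median itself lay 36 of 63 after correction, near the background of 49.8%. Among the 58 members in the upper 50% of density, at or over 7.54 RPKM, all 58 were lower, against 55.7% of protein-coding rows there. The median difference of the 63 was -0.17, with quartiles of -0.25 and -0.11, beside a median of -0.11 over all protein-coding rows. On the log2 scale with the pseudocount of 1, on which all fold rules here are set, 4 of 63 were at least 1.5-fold lower, against 5.6% of all protein-coding rows, which is near that background. None was at least 1.5-fold higher, against 0.639% of protein-coding rows. At a difference of -0.32 or lower, 8 of 63 were counted, under the background of 15.4%.

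2 features of the table bear on these counts. Its rows stop at a corrected p-value of 0.05, from the authors' own test between the 2 libraries, so genes with the smallest differences have no row, and all 63 counting intervals exclude a ratio of 1. Of 83 subunit names listed for the 5 complexes, 60 have a row, and the direction of the other 23 is not known. Of those 60, Ndufab1 and 2010107E04Rik are outside the symbol rule. The authors also scaled the libraries by a further 1.04 for their own fold changes. On that scale 59 of the 63 were lower, beside 5872 of 9388 protein-coding rows. In the authors' deposited table the folds of Atp5a1 (1.02), Atp5b (1.01) and Cyc1 (1.005) are positive.

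**Figure D1:**
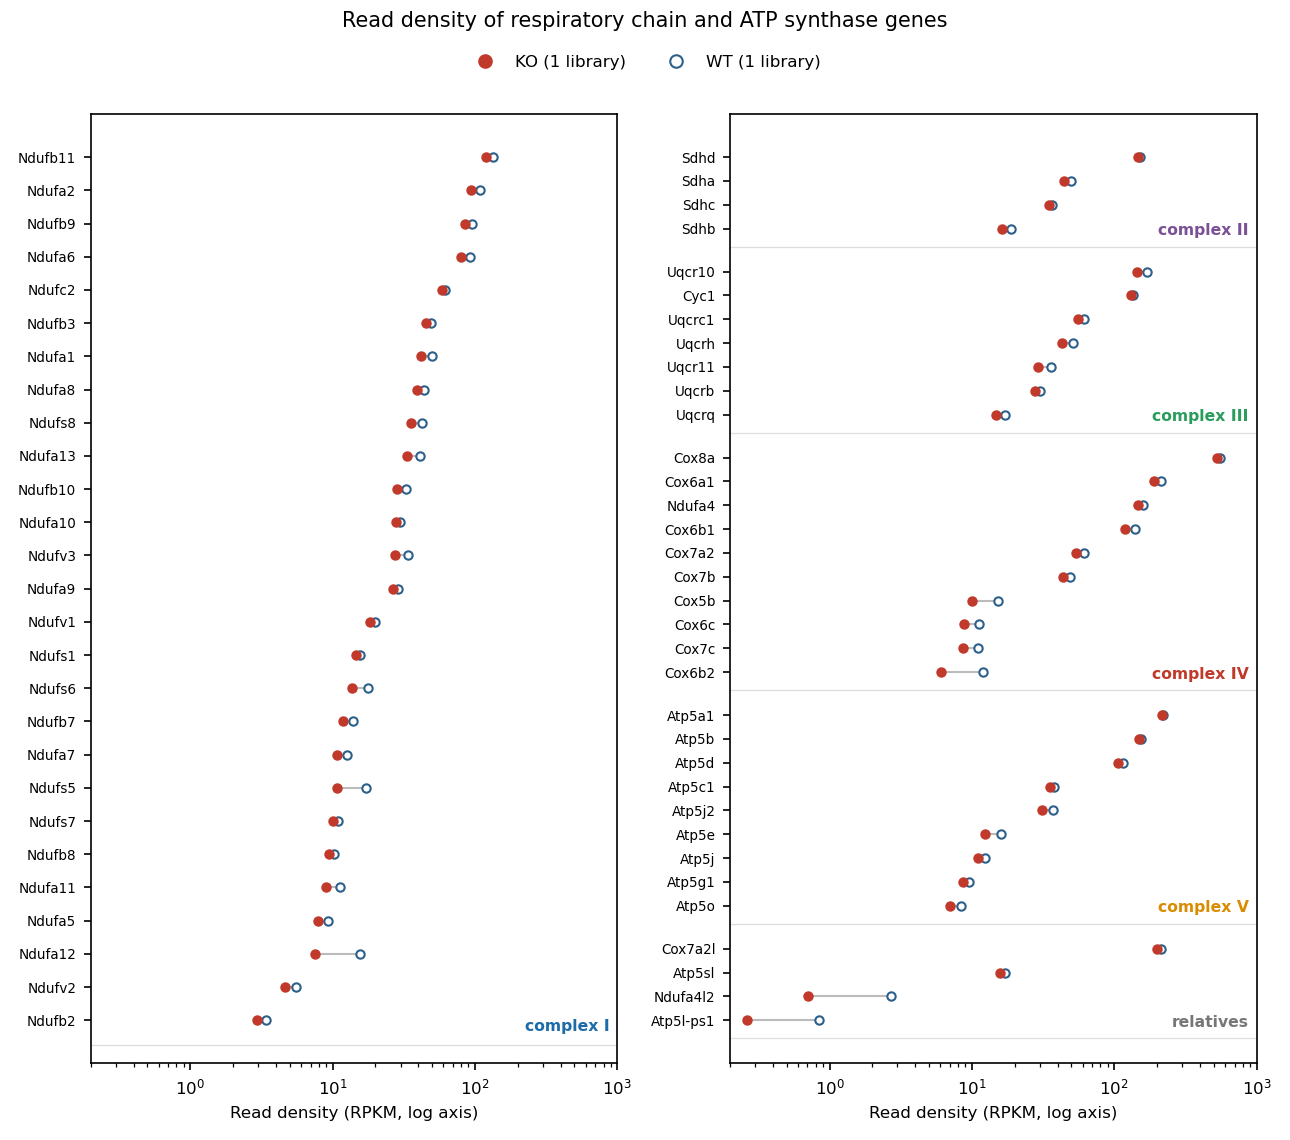
Read density in RPKM (log axis) of 61 genes by complex, with KO as filled red points and WT as open blue points, 1 library each. Cox7b2, at 0 in WT, and 1 gene of complex I are left out. Most pairs nearly touch, while Ndufa12, Ndufs5, Cox5b, Cox6b2, Ndufa4l2 and Atp5l-ps1 stand apart, each lower in KO.

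The plot of densities shows a wide range of levels inside each complex and almost the same order of genes in both libraries. Across the 63 members, Spearman's rho between the KO and WT densities was 0.99, a description of genes that share 2 libraries and a common length scale. Complex I ran from 2.95 RPKM (Ndufb2) to 119.8 RPKM (Ndufb11) in KO, and from 3.40 to 134 RPKM in WT. The highest density of all was that of Cox8a, 523 RPKM in KO and 556 RPKM in WT. A density is per base of the whole gene model, which for Ndufb2 is 5628 bases, from GENCODE, while the lengths the authors used were not given.

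Complex I showed the largest single difference of any listed subunit of complexes I to V. All 28 of its subunits were lower in KO, with a median of -0.20, and their summed density was 909 RPKM in KO and 1044 RPKM in WT. Ndufa12 (ENSMUSG00000020022), an accessory subunit of the arm that takes up NADH, lies at chr10:94198955-94221443 on the plus strand (GRCm38). The gene was at 7.51 RPKM in KO and 15.6 RPKM in WT, a ratio of 0.483 (95% interval 0.448 to 0.520) and a difference of -0.96. Ndufs5 (chr4:123712710-123718202, minus strand), an accessory subunit on the intermembrane side, was at 10.7 RPKM in KO and 17.1 in WT, a ratio of 0.625 (0.572 to 0.683). These were the only 2 subunits of complex I past 1.5-fold.

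The rest of complex I differed less. Ndufs6, a zinc-binding accessory subunit, followed at 13.8 RPKM in KO and 17.9 in WT, a ratio of 0.770 (0.711 to 0.834). Next came Ndufa13 and Ndufv3, both at -0.29. Toward the small end was Ndufs1, the largest core subunit, at 14.6 RPKM in KO and 15.5 in WT. Ndufb11, the subunit of highest density here and one encoded on the X chromosome, was at 119.8 RPKM in KO and 134 in WT, a ratio of 0.896 (0.872 to 0.921).

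The catalytic core and the accessory shell of complex I did not show the same median. The 6 core subunits with a row, which hold the flavin and the iron-sulfur clusters, had a median of -0.12. The 22 listed accessory subunits had a median of -0.21. The core genes are longer, with a median of 2230 exonic bases against 1155. After a correction for GC content and length the medians were -0.096 and -0.13. Within the core, Ndufs8 differed most with the pseudocount of 1, at 35.8 RPKM in KO and 42.6 in WT, a ratio of 0.840. Ndufv2 had a slightly lower ratio of 0.834, at 4.60 RPKM in KO and 5.51 in WT. After the correction Ndufv2 was at -0.38 and Ndufs8 at -0.16. Ndufv1, which binds NADH, was at 18.2 RPKM in KO and 19.9 in WT.

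Complex II, the only complex with all of its subunits encoded in the nucleus, was complete in the table and differed least. Its 4 genes were lower in KO with a median of -0.11, and none passed -0.32. Sdhb, the iron-sulfur subunit, was at 16.3 RPKM in KO and 18.7 in WT, a ratio of 0.874 (0.834 to 0.917). Sdha, the flavoprotein that oxidises succinate, was at 44.4 RPKM in KO and 49.6 in WT, a ratio of 0.894 (0.875 to 0.914). The membrane anchors were nearer to even. Sdhc was at 34.6 RPKM in KO and 36.3 in WT, and Sdhd at 146 in KO and 153 in WT, and both were above the median gene of the table.

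Complex III had 7 of 9 listed names in the table, all lower in KO, with a median of -0.20 and none past -0.32. Uqcr11, a small subunit of the complex, was at 29.0 RPKM in KO and 36.1 in WT, a ratio of 0.803 (0.752 to 0.857). Uqcrh, the hinge protein that holds cytochrome c1, was at 43.2 RPKM in KO and 51.1 in WT. Uqcr10, of highest mean density in the complex, was at 145 RPKM in KO and 171 in WT, a ratio of 0.848 (0.822 to 0.874). The catalytic subunit cytochrome c1 itself, Cyc1, was at 130.5 RPKM in KO and 135 in WT, a ratio of 0.966 (0.949 to 0.983), and its direction turns under the authors' scaling. Uqcrb lay between them at 27.6 RPKM in KO and 30.3 in WT, and the core protein gene Uqcrc1 at 55.5 in KO and 61.5 in WT.

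Complex IV had 10 of 17 listed names in the table, counting Ndufa4, which was named for complex I and is now placed in complex IV. All 10 were lower in KO, with a median of -0.21. Cox6b2 (chr7:4751794-4753094, minus strand), the isoform of subunit 6B known from testis, was at 6.04 RPKM in KO and 12.1 in WT, a ratio of 0.501 (0.453 to 0.553). Its broadly expressed counterpart Cox6b1 was at 119 RPKM in KO and 141 in WT, a ratio of 0.847 (0.821 to 0.874). The pair thus had a larger difference in the isoform of lower density, and the counting intervals of their ratios do not meet.

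Cox5b (chr1:36691487-36693385, plus strand), a zinc-binding subunit on the matrix side, was at 10.1 RPKM in KO and 15.3 in WT, a ratio of 0.659 (0.616 to 0.706). On the log2 scale with the pseudocount its difference was -0.56, just short of the 1.5-fold rule, which is set on that scale. The small structural subunits Cox6c and Cox7c came next. Cox6c was at 8.84 RPKM in KO and 11.2 in WT, and Cox7c at 8.69 in KO and 10.95 in WT. The genes of highest density differed less. Cox8a had a ratio of 0.942 (0.927 to 0.958), Cox6a1 was at 191 RPKM in KO and 213 in WT, and Ndufa4 at 146 in KO and 159 in WT. Of the isoform groups of complex IV, Cox4i1, Cox4i2, Cox6a2, Cox7a1 and Cox8b have no row and are not analysed here.

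Complex V, the ATP synthase, differed least in its catalytic head. Its 9 members were all lower in KO, with a median of -0.12, close to the -0.11 of all protein-coding rows. Atp5a1 and Atp5b, the alpha and beta subunits that form the catalytic hexamer, were at 217 and 149 RPKM in KO and at 222 and 154 RPKM in WT. Their ratios were 0.979 (0.968 to 0.990) for Atp5a1 and 0.969 (0.958 to 0.981) for Atp5b, and both turn direction under the authors' scaling. The gamma and delta subunits of the central stalk, Atp5c1 and Atp5d, were at 35.2 and 106 RPKM in KO and at 37.5 and 114 RPKM in WT. Atp5e, the epsilon subunit of the same stalk, differed most in the complex, at 12.3 RPKM in KO and 16.1 in WT, a ratio of 0.766 (0.721 to 0.814).

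The membrane part and the side stalk of complex V lay in between. Atp5j2, a membrane subunit, was at 31.1 RPKM in KO and 37.2 in WT, a ratio of 0.837 (0.814 to 0.861). Atp5o, the protein that joins the stalk to the head, was at 7.08 RPKM in KO and 8.39 in WT. Atp5g1, one of the genes for the c subunit of the rotor ring, was at 8.67 RPKM in KO and 9.50 in WT, and its sister genes Atp5g2 and Atp5g3 have no row. Atp5j, coupling factor 6 of the side stalk, was at 11.1 RPKM in KO and 12.3 in WT. Its exons share 12.7% of their bases with Gabpa on the opposite strand, which was higher in KO at 19.6 RPKM against 17.0 in WT. The strand setting of the authors' counting is not given in the sources used here, so reads of that pair may not be told apart. Exons of 18 members overlap another gene, on either strand. The largest share was that of Ndufa13 with Tssk6, followed by 19.5% of Ndufb9 with Gm49356 and 18.1% of Atp5o with Gm15976, and Ndufb11, Ndufs1, Ndufs6 and Ndufa4l2 are among the rest, so these values are uncertain.

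**Figure D2:**
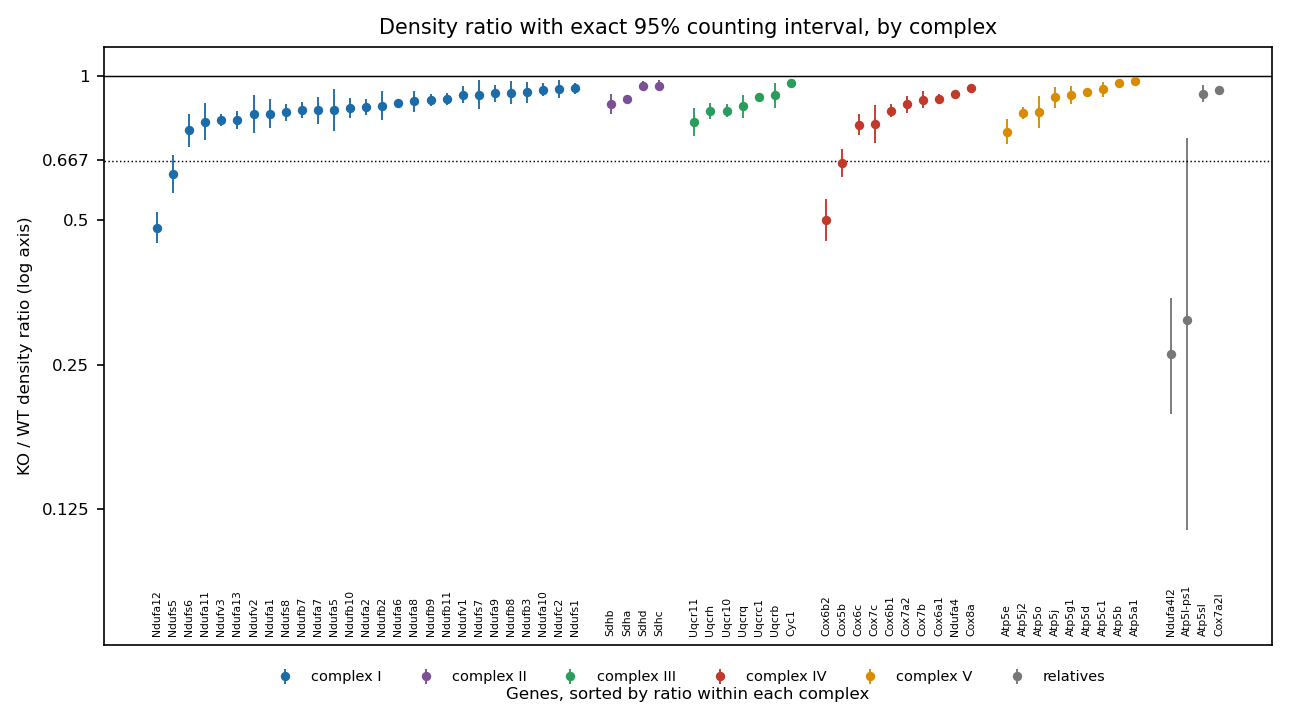
KO/WT density ratio (log axis) of 61 genes sorted within each complex, with exact 95% counting intervals, the solid line at 1 and the dotted line at 1.5-fold lower. All points lie under 1, and Ndufa4l2, Atp5l-ps1, Ndufa12, Cox6b2, Ndufs5 and Cox5b lie lowest.

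The 5 relatives matched by symbol are not standard subunits and varied most. The plot of ratios shows 2 of them far under the rest. Ndufa4l2 (chr10:127514939-127517152, plus strand), a paralogue of Ndufa4 that is induced by hypoxia and is also known as a gene of vascular pericytes, was at 0.705 RPKM in KO and 2.68 in WT. Its ratio was 0.263 (0.197 to 0.345) on an estimated 66 reads in KO and 268 in WT, and its difference of -1.11 was the most negative of all 63 members with the pseudocount of 1. With a pseudocount of 4 it was -0.51, behind Ndufa12 (-0.76), Cox6b2 (-0.68) and Ndufs5 (-0.52), and with 0.25 it was -1.62. Ndufa4 itself had a ratio of 0.917 (0.898 to 0.936). Atp5l-ps1, a copy of the gene for ATP synthase subunit g that the table classes as protein-coding, was at 0.262 RPKM in KO and 0.843 in WT, on 7 and 24 reads.

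Pericyte and hypoxia genes were looked up for Ndufa4l2 after its value was seen. Of 8 listed pericyte genes, 6 had a row, with Pdgfrb also on the stromal list. All 6 were lower in KO, where 63.7% of all protein-coding rows were lower, with a summed density of 29.7 RPKM in KO and 46.4 in WT. Notch3, at 16.3 RPKM in KO and 19.8 in WT, and Cspg4, at 6.82 in KO and 7.58 in WT, hold much of these sums and differed least. Rgs5 was at 1.85 RPKM in KO and 7.38 in WT, and Pdgfrb at 3.71 in KO and 8.76 in WT. Of 10 listed hypoxia response genes, 7 had a row, all lower in KO and none past 1.5-fold with the pseudocount. Egln3 differed most, at 0.763 RPKM in KO and 1.499 in WT, where the pseudocount understates the difference. Pdk1 was at 10.98 RPKM in KO and 14.6 in WT, and Vegfa at 51.6 in KO and 54.3 in WT. The part of either set in the value of Ndufa4l2 was not tested.

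The remaining relatives were near even or barely detected. Cox7a2l, which links complexes III and IV in supercomplexes, was at 199 RPKM in KO and 213 in WT, a ratio of 0.935 (0.919 to 0.951). Cox7a2, the subunit it resembles, was at 53.5 RPKM in KO and 61.2 in WT. Atp5sl was at 15.8 RPKM in KO and 17.2 in WT. Cox7b2, the isoform of Cox7b known from testis, was the only member higher in KO. It had 6 reads (0.129 RPKM) in KO and was at 0 in WT. Set against an assumed floor of 3 reads in WT its ratio was 2.13, which is not a lower bound. The exact counting interval of the ratio begins at 1.254. Cox7b, its broadly expressed counterpart, was at 43.5 RPKM in KO and 48.7 in WT.

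3 of the members are encoded on the X chromosome, and the 2 libraries differed in Xist, the RNA that silences the inactive X of females, which was at 70.1 RPKM in KO and 15.7 in WT. Ndufa1 was at 41.6 RPKM in KO and 49.8 in WT, Cox7b and Ndufb11 as given above. Their median of -0.16 lay beside a median of -0.18 over the 60 autosomal members. The sex of the embryos is not given in the sources used here.

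Base composition and gene length moved with the difference across the whole table, and respiratory genes are short. The median member had 1569 exonic bases, against 4459 over all protein-coding rows, and the GC contents were alike, at 50.4% and 50.1%. Across 9328 protein-coding rows with a gene model, Spearman's rho with the difference was 0.32 for length and -0.435 for GC content, where genes are not independent replicates. Across the 63 members alone rho was 0.29 for length and -0.04 for GC content.

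**Figure D3:**
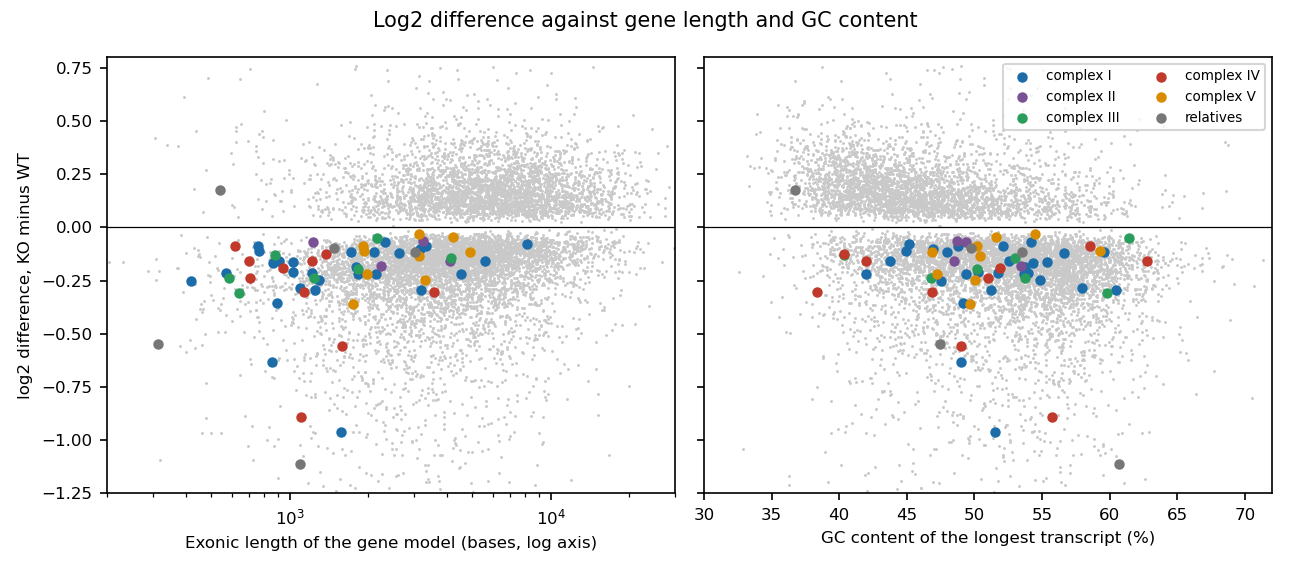
Log2 difference, KO minus WT, against exonic length (log axis) and GC content, with the 63 members coloured by complex over the other protein-coding rows in grey. Members lie among the short genes, mostly between -0.3 and 0, and the empty band at 0 comes from the table's limit on the corrected p-value.

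Genes of like length outside the respiratory chain differed by similar amounts. Under 1 kb, the 17 members had a median of -0.19 and 263 other protein-coding rows a median of -0.23. Between 1 and 2 kb, 24 members had a median of -0.22 and 995 other rows one of -0.20. Over 2 kb, 22 members had a median of -0.12 and 8007 other rows one of -0.097. The direction was more uniform in members, with 22 of 22 lower over 2 kb where 60.6% of the other rows were lower. Under 1 kb, 16 of 17 members were lower and 77.9% of the other rows. These shares were not tested against each other.

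A correction subtracted from each gene the median of its bin of like GC content and length and added back the median of all genes. For the median member, the bin median was -0.19, already below its own difference of -0.17. After correction, 36 of 63 members lay under the median of all protein-coding rows, near the background of 49.8%, and their median was -0.14 beside -0.11 for all rows. Complex IV stood lower after correction, at -0.33, than before it, at -0.21. Its AT-rich genes moved most, such as Cox7c, at -0.56 after correction and -0.30 before, and Ndufa4, at -0.39 after and -0.12 before. Bin medians were -0.15 for Uqcrh, 0.046 for Cox7b and Ndufv2, and 0.15 for Cox7c and Ndufa4. They thus lie on either side of the empty band at 0 that the limit on the corrected p-value leaves. The part of that band in the corrected values of AT-rich genes, and in the complex IV median, was not tested. Ndufa12 (-0.87), Cox6b2 (-0.81), Ndufs5 (-0.55) and Ndufa4l2 (-0.98) kept most of their differences after correction.

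**Figure D4:**
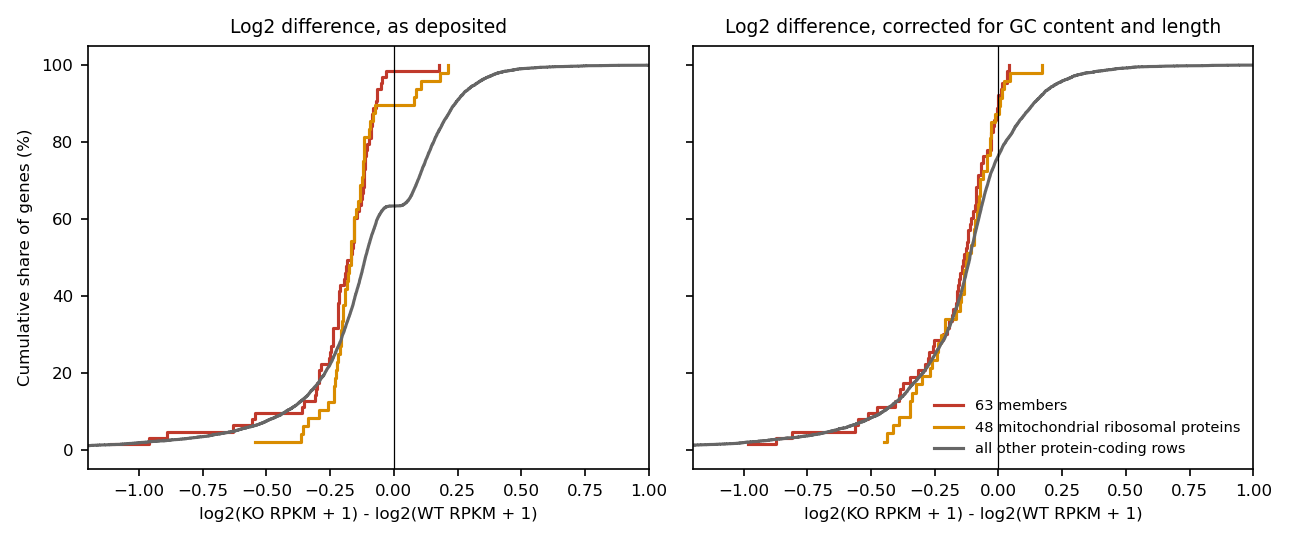
Cumulative share of genes (%) against the log2 difference, for the 63 members, 48 mitochondrial ribosomal proteins and all other protein-coding rows, as deposited (left) and corrected for GC content and length (right). As deposited, the member curve lies left of the other rows; after correction the 3 curves lie close together up to the median and part above it.

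Other genes of mitochondria showed a range of patterns, as the plot of cumulative shares shows for the ribosome. Of 48 mitochondrial ribosomal protein genes, which make the machine that translates the mitochondrially encoded subunits, 43 were lower in KO, with a median of -0.17, the same as that of the members. Of 769 rows annotated to the mitochondrion that are not members, 76.9% were lower, with a median of -0.15, and of 13 protein import genes 9 were lower. Of 17 listed assembly factors with a row, out of 47 names, 13 were lower, with a median of -0.15 and none past 1.5-fold. The shares were 69.2% for the import genes and 76.5% for the assembly factors, beside 63.7% of all protein-coding rows, whose median was -0.11. Ndufaf2, an assembly factor related to Ndufa12, was at 21.4 RPKM in KO and 28.1 in WT. Ndufaf4, also a complex I factor, was higher in KO at 8.36 RPKM against 6.44 in WT, and Cox18, which inserts a subunit of complex IV, at 4.50 in KO and 3.498 in WT. Sco2 has no row in the table.

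Electron carriers and the citric acid cycle were mixed. Cycs, cytochrome c, was at 2.13 RPKM in KO and 1.48 in WT, on a gene known for many processed copies that can take its reads. Of the 6 genes of cytochrome c and ubiquinone synthesis with a row, 3 were lower and 3 higher. Of 10 citric acid cycle genes with a row, 7 were lower, with a median of -0.084. Both counts stand beside 63.7% lower over all protein-coding rows, whose median was -0.11. Dld, the shared E3 subunit of 2-oxoacid dehydrogenases, was the furthest, higher in KO at 46.2 RPKM against 37.3 in WT. None of the 13 mitochondrially encoded subunits has a row, so the partner genes from mitochondrial DNA are not analysed here.

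Regulators of respiratory genes leaned the other way from the subunits. Of 15 listed regulators with a row, 10 were higher in KO and 5 lower, with a median of 0.12, and none passed 1.5-fold with the pseudocount. Over all protein-coding rows 63.7% were lower. Ppargc1b, a coactivator that promotes mitochondrial gene expression, was at 4.31 RPKM in KO and 2.85 in WT. Hif1a, the oxygen-regulated factor, was at 25.5 RPKM in KO and 19.8 in WT, and Creb1 at 17.7 in KO and 13.8 in WT. Of the factors whose motifs were searched above, Yy1 was at 43.5 RPKM in KO and 37.0 in WT, while Nrf1 was at 5.60 in KO and 6.13 in WT. These regulators are long genes of low GC content, with a median of 5896 exonic bases. After correction their median was -0.0062, beside -0.11 for all protein-coding rows. Under that overall median lay 4 of the 15, against 49.8% of all rows. Under 0 lay 8 of the 15, against 7149 of 9328 protein-coding rows with a gene model.

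Of 4 inhibitors and helpers of the assembled complexes with a row, 3 were lower in KO, where 63.7% of all protein-coding rows were lower. Atpif1, the inhibitor of ATP synthase run in reverse, was at 62.3 RPKM in KO and 71.6 in WT, and Higd2a, a factor of complex IV and supercomplexes, at 96.6 in KO and 112 in WT. Chchd10 differed most of the 4, at 6.80 RPKM in KO and 9.77 in WT, while its paralogue Chchd2 was higher in KO, at 55.7 against 52.1 in WT. The subunits outside the symbol rule were both lower. Ndufab1, the acyl carrier protein of complex I, was at 3.004 RPKM in KO and 3.36 in WT, and 2010107E04Rik, a small protein of ATP synthase, at 83.8 in KO and 98.9 in WT.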

How the data were processed

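RNA from 1 KO and 1 WT library was sequenced. Per the submitters' processing notes, CASAVA 1.8, Novoalign 2.08.02 and FastQC are named as tools and GRCm38 and mm10 as builds, without their roles. The columns, per the file headers, are the authors' read density of each library, raw and corrected p-values, a fold ratio and its signed form. The authors' signed fold is a score below 0 for genes lower in KO. The deposited density is read as RPKM. For genes at 0 in the other library, the authors' fold ratios were searched for a step of 1 read. With the fitted step, 70 of 75 in KO and 150 of 171 in WT lay at whole-read steps (within 0.01 of a read). Of those with a gene model, 48 of 67 in KO and 100 of 149 in WT gave the implied depth within 0.5%. The rest did not, so the implied depths are approximate. Counting rules and strand were not given. Reads were estimated with gene lengths of GENCODE vM21 (GRCm38), which has a model overlapping the deposited coordinates for all 63 members, and are approximate. GC content was that of the longest transcript, in 10 GC bins with 4 length bins each. Scripts (Python 3.11.15, scipy 1.17.1, pandas 2.3.3) were tested on simulated data. Exons of 18 members overlap another gene, and several subunits have near-identical processed copies, so single values are uncertain. Members, lists and named genes (the 3 most and 2 least negative of each complex, the densest, and isoform pairs, and of other lists the furthest 3) were chosen with earlier results of these data known; others were named after their values were seen. Groups follow the genotype labels. 1 member is counted but not reported by name here. No tests were run.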

Additional observations from a re-analysis of the deposited data

How the results depend on the processing

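No paired analysis was possible because each group has 1 library. The count of 62 of 63 members lower in KO became 47 on centring, 58 with the correction for GC content and length, 59 with the authors' scaling and 36 of 36 in the upper 25% of density, where fewer genes are counted. Over all protein-coding rows the counts were 5981 of 9388 as deposited, 4694 on centring and 5872 with the authors' scaling. With the correction 7149 of 9328 rows were under 0. The count over all rows in the upper 25% of density was not taken. In the main setting 4 members were at least 1.5-fold lower, against 5.6% of all protein-coding rows. At a difference of -0.32 or lower there were 8, against 15.4% of all protein-coding rows. The count was 6 with a pseudocount of 0.25, 2 with a pseudocount of 4, 0 in the upper 25% of density and 1 at a 2-fold rule. For these last settings the share over all rows was not taken, so the counts have no background beside them. Of members at least 1.5-fold higher there was 1 (Cox7b2) with a pseudocount of 0.25 and 0 otherwise. Centring on the median of all protein-coding genes, a shift of 0.11, gave medians of -0.057 for all members, -0.086 for complex I, -0.00045 for complex II, -0.084 for complex III, -0.10 for complex IV and -0.0056 for complex V. The correction for GC content and length gave -0.13 for complex I and -0.33 for complex IV, with the limit given above for AT-rich genes. Among the genes given in full, centring turned Atp5a1 (0.082), Atp5b (0.068), Cyc1 (0.062), Sdhc (0.048), Sdhd (0.044), Ndufs1 (0.032), Cox8a (0.027) and Cox7a2l (0.016) positive. The authors' scaling did so for Atp5a1 (0.026), Atp5b (0.012) and Cyc1 (0.0065), and the correction for Cox8a (0.041), Atp5a1 (0.033), Cyc1 (0.033), Sdhd (0.012) and, outside those, Ndufs7 (0.010), while Cox7b2 became -0.087. Leaving out the 18 members that overlap another gene, an alternative added after seeing the data, left 44 of 45 lower and a median of -0.19. Depth limits Cox7b2, Atp5l-ps1 and Ndufa4l2, and no value has a replicate check.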
